A study of Mus musculus with 4 samples.

Results

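Prostaglandins and leukotrienes are made from arachidonic acid by a short chain of enzymes, and 9 genes of that chain, matched by symbol among the 31053 genes of the count tables, were followed here: Ptgs1, Ptgs2, Ptges, Hpgds, Alox5, Alox5ap, Lta4h, Ltc4s and Alox15. The data were single-cell RNA-seq of live CD45+ immune cells sorted from 3 mm excisional wounds in the dorsal skin of 8-week-old male mice labelled C57BL6/J, either Angptl4+/+ or Angptl4-/-, at 1 day and at 5 days postwounding (dpw). Angptl4 encodes a secreted protein that inhibits lipoprotein lipase. There were 4 libraries, 1 for each genotype and day, so no difference had a replicate check. Every interval covers counting error only, and no p-value is given. The Angptl4-/- mice lacked the gene in all cells and came from a repository, whereas the wild-type mice came from a commercial supplier. Genotype and colony of origin therefore cannot be told apart, and the number of mice behind each library was not given in the sources used here. Each ratio compares 2 libraries, not 2 conditions.

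Ptgs1 and Ptgs2 encode the 2 cyclooxygenases, the first usually constitutive and the second induced by inflammatory signals. They convert arachidonic acid into prostaglandin H2, which Ptges (microsomal prostaglandin E synthase) turns into prostaglandin E2 and Hpgds (hematopoietic prostaglandin D synthase) into prostaglandin D2. On the other branch, Alox5 (5-lipoxygenase) works with the membrane protein encoded by Alox5ap to make leukotriene A4. Lta4h hydrolyses leukotriene A4 to the neutrophil attractant leukotriene B4, Ltc4s conjugates it with glutathione to leukotriene C4, and Alox15 makes other oxygenated fatty acids, including precursors of pro-resolving mediators.

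The libraries held 4738 to 5346 cells that passed the filters, with median depths of 3736 to 4976 unique molecular identifiers (UMIs, 1 per captured transcript) per cell. Angptl4 had 47 and 78 UMIs in the Angptl4+/+ libraries at 1 and 5 dpw and 0 UMIs in both Angptl4-/- libraries. In all, 48 barcode sequences occurred in more than 1 library. Clusters were named from marker genes, and the classes were neutrophil-like, macrophage-like, monocyte-like, NK cell/T cell-like, dendritic cell-like and B cell-like. A cluster led by Siglecf, which is known from a subset of tissue neutrophils and from eosinophils, was kept apart under that name. This cluster of 962 cells was best matched by the neutrophil list, with all 10 neutrophil markers detected. Siglecf was the 1 eosinophil marker among its 10 leading genes. At a clustering resolution of 1.0, a cluster of 981 cells that shared leading genes with it was named neutrophil-like. Neutrophil-like cells made up 69.5% and 49.1% of Angptl4+/+ cells at 1 and 5 dpw and 73.8% and 66.3% of Angptl4-/- cells. Macrophage-like cells made up 21.6%, 31.4%, 17.7% and 13.7% in the same order. That order (Angptl4+/+ at 1 dpw, Angptl4+/+ at 5 dpw, Angptl4-/- at 1 dpw, Angptl4-/- at 5 dpw) is used for every set of 4 values below. Levels are in CPM: within each class and library, UMIs were added up per gene and scaled to 1000000 UMIs of that class. Parentheses after a level or a log2 ratio hold its 95% interval. All 10 neutrophil markers were also detected in macrophage-like cells, where they summed to 12649, 2266, 11314 and 2422 CPM, against 204815, 113645, 221805 and 115455 CPM in neutrophil-like cells. All 13 macrophage markers were likewise detected in neutrophil-like cells, summing to 7821, 5202, 9112 and 4465 CPM. The part of these transcripts in the levels below was not tested. Where cells led by neutrophil genes were left out, such transcripts in the remaining cells stayed in the levels.

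The levels of 5 members differed most between days or genotypes in macrophage-like cells. Printed here for these genes are bases from the 250 before the RefSeq start. They are on GRCm38.p6 in the direction of transcription, stopping before any exon of a protein-coding gene, and lie at chr1:150099781-150100030 (plus strand) for Ptgs2, chr2:36230176-36230425 (plus strand) for Ptgs1, chr2:30903298-30903547 (minus strand) for Ptges, chr6:65144909-65144980 (minus strand) for Hpgds and chr11:50238617-50238782 (minus strand) for Ltc4s. For Hpgds and Ltc4s, an exon lies inside those 250 bases, so the 72 and 166 printed bases stop short of the RefSeq start. Capitals mark matches to a GC box (GGGCGG) or to a C/EBP-type motif (TTNNGNAA), each searched on both strands.
Ptgs2: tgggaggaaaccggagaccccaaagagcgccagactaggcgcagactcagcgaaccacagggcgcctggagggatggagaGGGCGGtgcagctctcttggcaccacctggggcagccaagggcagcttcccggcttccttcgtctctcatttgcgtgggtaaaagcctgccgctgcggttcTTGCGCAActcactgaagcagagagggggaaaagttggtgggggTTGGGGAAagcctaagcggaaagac
Ptgs1: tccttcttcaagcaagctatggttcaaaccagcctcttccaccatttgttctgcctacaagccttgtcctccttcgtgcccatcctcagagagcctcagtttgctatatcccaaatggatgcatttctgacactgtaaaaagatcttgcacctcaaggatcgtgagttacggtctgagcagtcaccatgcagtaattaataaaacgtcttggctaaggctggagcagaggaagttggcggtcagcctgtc
Ptges: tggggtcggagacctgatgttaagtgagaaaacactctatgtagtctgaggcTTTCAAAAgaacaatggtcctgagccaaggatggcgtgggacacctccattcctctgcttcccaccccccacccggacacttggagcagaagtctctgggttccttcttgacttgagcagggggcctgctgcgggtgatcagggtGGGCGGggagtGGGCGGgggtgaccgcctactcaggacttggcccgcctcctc
Hpgds: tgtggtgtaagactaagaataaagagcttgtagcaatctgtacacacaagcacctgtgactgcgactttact
Ltc4s: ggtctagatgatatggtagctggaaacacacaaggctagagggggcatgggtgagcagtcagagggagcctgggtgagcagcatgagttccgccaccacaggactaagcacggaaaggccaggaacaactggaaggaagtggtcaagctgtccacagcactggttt
The Ptgs2 window held 1 GC box and 2 C/EBP-type matches, and the Ptges window held 2 GC boxes and 1 C/EBP-type match. The Hpgds window held 2 C/EBP-type matches outside its printed bases, and the Ptgs1 and Ltc4s windows held neither motif. Among 32851 promoter windows of 250 bases, 32.7% held a GC box and 36.8% a C/EBP-type match. No match to a cAMP response element half-site (ACGTCA, held by 6.47% of windows), an E-box (CACGTG, 6.02%) or a TATA box (TATAAA, 12.4%) lay in the 250 bases of any of these 5 genes. Bases outside these windows, including those after the RefSeq start, were not searched, so a promoter may hold such motifs there. The Ptges window lies inside the annotated span of that gene, which runs upstream of the RefSeq start. Promoter entries matched 7 of the 9 members, all but Alox5ap and Alox15. In the GENCODE annotation Ptgs2 spans chr1:150100031-150108227, Ptgs1 chr2:36230426-36252272 and Ltc4s chr11:50236461-50238616. Ltc4s is the shortest of the 9 genes, at 2156 bases on chromosome 11, and its exons overlap those of Gm26542 on the opposite strand. Exons of Ptgs1 and Alox5ap overlap opposite-strand genes too, Gm43621 and Gm19719. Whether the counting used strand is not given in the sources used here, so reads of these pairs may be mixed.

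Most members had the larger part of their UMIs in 1 of 2 classes (the plot of UMI shares by class). A larger class can hold more UMIs of any gene. Neutrophil-like cells were 69.5%, 49.1%, 73.8% and 66.3% of cells, and macrophage-like cells 21.6%, 31.4%, 17.7% and 13.7%. Shares of cells are not shares of UMIs, because depth differed by class. Median depths were 4729, 3258, 4680 and 3426 UMIs per neutrophil-like cell. Macrophage-like cells were deeper, at 6855, 8344, 5864 and 11513 UMIs, and so held more of all UMIs than their cell shares show. How far the shares below follow class size and depth was not tested. Over all 4 libraries, neutrophil-like cells held 77.5% of 104909 Ptgs2 UMIs and 78.7% of 4347 Alox5 UMIs. Macrophage-like cells held 95.4% of 4942 Ltc4s UMIs, 92.7% of 2865 Ptges UMIs and 81.9% of 1007 Hpgds UMIs. For Alox5ap and Ptgs1 the leading class differed between libraries. Neutrophil-like cells held 66.0%, 25%, 71.2% and 39.3% of Alox5ap UMIs, and in Angptl4+/+ at 5 dpw macrophage-like cells held 56.5%. Macrophage-like cells held 32.2%, 74.2%, 34.8% and 24.7% of Ptgs1 UMIs, against 42.0% and 36.5% in neutrophil-like cells in Angptl4+/+ and Angptl4-/- at 1 dpw and 37.9% in the Siglecf-led cluster in Angptl4-/- at 5 dpw. Lta4h was spread most widely, with 39.4% of its 3487 UMIs in macrophage-like, 22.1% in neutrophil-like, 12.7% in NK cell/T cell-like and 14.6% in dendritic cell-like cells. Alox15 had 20 UMIs in all, none of them in these classes.

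**Figure D1:**
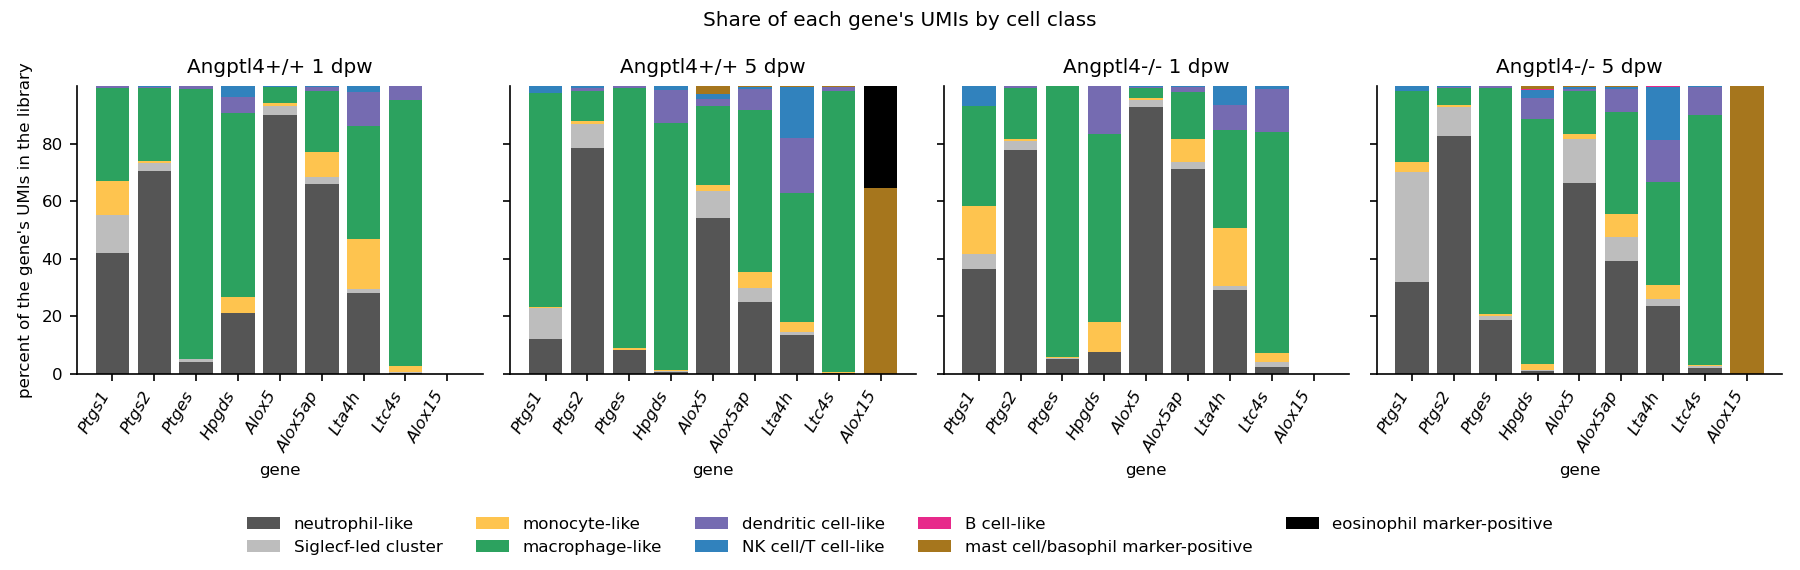
Share of each gene's UMIs (percent, vertical axis) that lay in each cell class, 1 panel per library and 1 stacked bar per gene. Macrophage-like cells held most Ptges, Hpgds and Ltc4s UMIs in every library and neutrophil-like cells most Ptgs2 and Alox5 UMIs, and Alox15 has no bar at 1 dpw because it had no UMI there.

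Of the cyclooxygenases, Ptgs2 was high in neutrophil-like cells, at 1015, 2598, 885 and 2354 CPM. The Siglecf-led cluster had similar values of 990.4, 2716, 1000.4 and 2592 CPM. Both classes were higher at 5 dpw than at 1 dpw in each genotype. Macrophage-like cells showed the opposite order, with Ptgs2 at 772, 207, 619 and 239.9 CPM, and monocyte-like cells had 83.7, 282, 76.6 and 171 CPM, with 5 dpw the higher day in each genotype. NK cell/T cell-like cells, a class not known for Ptgs2, had 259, 59.2, 96.9 and 30.0 CPM. When this class was clustered again, 10 of 10 neutrophil markers were detected in sub-cluster L2. In L4 9 of 10 were detected, in L1 and L5 8 of 10 and in L6 6 of 10. L2 held 36.1%, 21.7%, 25% and 27.1% of the NK cell/T cell-like cells, or 13, 49, 9 and 59 cells. Levels near these in other classes may thus be background, and the part of neutrophil transcripts in them was not tested. With each cell thinned to 1000 UMIs, 50.8% and 73.9% of Angptl4+/+ neutrophil-like cells had a Ptgs2 UMI at 1 and 5 dpw. In Angptl4-/- 1619 of 3520 and 2135 of 3051 thinned neutrophil-like cells had one. Among Angptl4+/+ NK cell/T cell-like cells the thinned shares were 2.65% to 11.1%. Without thinning the Angptl4+/+ ranges were 77.4% to 85.9% (median depths of 3258 to 4729 UMIs) and 7.52% to 19.4% (6274 to 7136 UMIs).

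Ptgs1 was highest in the Siglecf-led cluster in 3 of the 4 libraries, at 26.6, 74.0, 9.94 and 58.8 CPM, with 19, 59, 6 and 72 UMIs behind the values and both 5 dpw libraries above both 1 dpw libraries. The exception was Angptl4-/- at 1 dpw, with 27.7 CPM in NK cell/T cell-like cells, from 8 UMIs in 2 cells and with an interval that overlapped that of the Siglecf-led cluster. Macrophage-like cells had 5.11, 30.7, 6.83 and 6.07 CPM and neutrophil-like cells 3.16, 8.29, 2.37 and 5.53 CPM. A single value stood out among the macrophage-like libraries, that of Angptl4+/+ at 5 dpw, while the other 3 lay between 5.11 and 6.83 CPM. Dendritic cell-like cells had 2 Ptgs1 UMIs over all 4 libraries.

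Ptges was high in macrophage-like cells at 1 dpw, at 156 and 153 CPM, in Angptl4+/+ and Angptl4-/-, against 17.7 and 15.6 CPM at 5 dpw. Neutrophil-like cells had 3.37, 2.68, 2.82 and 2.63 CPM. Hpgds ran the other way in macrophage-like cells, at 7.66, 35.6, 7.34 and 31.9 CPM. In dendritic cell-like cells Hpgds had 3.73, 15, 9.15 and 7.02 CPM. In neutrophil-like cells it had 35 UMIs, of which 34 lay in the sub-cluster N5 led by Nceh1 and Lhfpl2.

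In the leukotriene branch, Alox5 was high in neutrophil-like cells, at 60.1, 59.2, 68.0 and 55.5 CPM, and in the Siglecf-led cluster, at 58.8, 99.1, 56.3 and 113 CPM. Macrophage-like cells had 7.55, 17.9, 7.17 and 17.9 CPM, with both 5 dpw libraries above both 1 dpw libraries. Alox5ap, whose product presents arachidonic acid to 5-lipoxygenase, was broad. Its levels were 1482, 746, 1438 and 698 CPM in neutrophil-like, 1653, 1068, 1657 and 1141 CPM in monocyte-like and 997, 1007, 994 and 896 CPM in macrophage-like cells, against 435, 412, 497 and 515 CPM in dendritic cell-like cells. The 4 macrophage-like libraries were nearly level, whereas neutrophil-like cells had less at 5 dpw in each genotype. NK cell/T cell-like cells had 370.4, 55.4, 436 and 77.0 CPM.

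Lta4h, the leukotriene B4 enzyme, was low in neutrophil-like cells, at 11.4, 20.8, 9.03 and 20.9 CPM, and in the Siglecf-led cluster, at 12.6, 12.5, 11.6 and 19.6 CPM. NK cell/T cell-like cells had 57.5, 89.4, 125 and 76.5 CPM, monocyte-like cells 61.1, 34.9, 62.9 and 32.2 CPM, dendritic cell-like cells 56.0, 56.5, 39.9 and 47.8 CPM and macrophage-like cells 33.6, 40.8, 31.8 and 45.1 CPM. The B cell-like class, with 55 cells in all, was left out of this order. Ltc4s, the leukotriene C4 enzyme, had 40.0, 286, 22.0 and 61.1 CPM in macrophage-like cells. No other class with more than 15 cells passed 21 CPM: dendritic cell-like cells had 11.8, 13.1, 20.8 and 18.1 CPM and neutrophil-like cells 0.105, 1.79, 0.226 and 1.09 CPM. Among macrophage-like cells thinned to 1000 UMIs, 4.40%, 21.1%, 3.82% and 4.67% had an Ltc4s UMI. No thinned NK cell/T cell-like cell had one (0 of 36, 226, 36 and 218 cells). Without thinning the shares were 11.1%, 45.8%, 7.41% and 21.5% of macrophage-like cells, at median depths of 6855, 8344, 5864 and 11513 UMIs, and 0%, 1.33%, 5.56% and 0.459% of NK cell/T cell-like cells, at 6274, 7136, 6360 and 6984 UMIs.

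**Figure D2:**
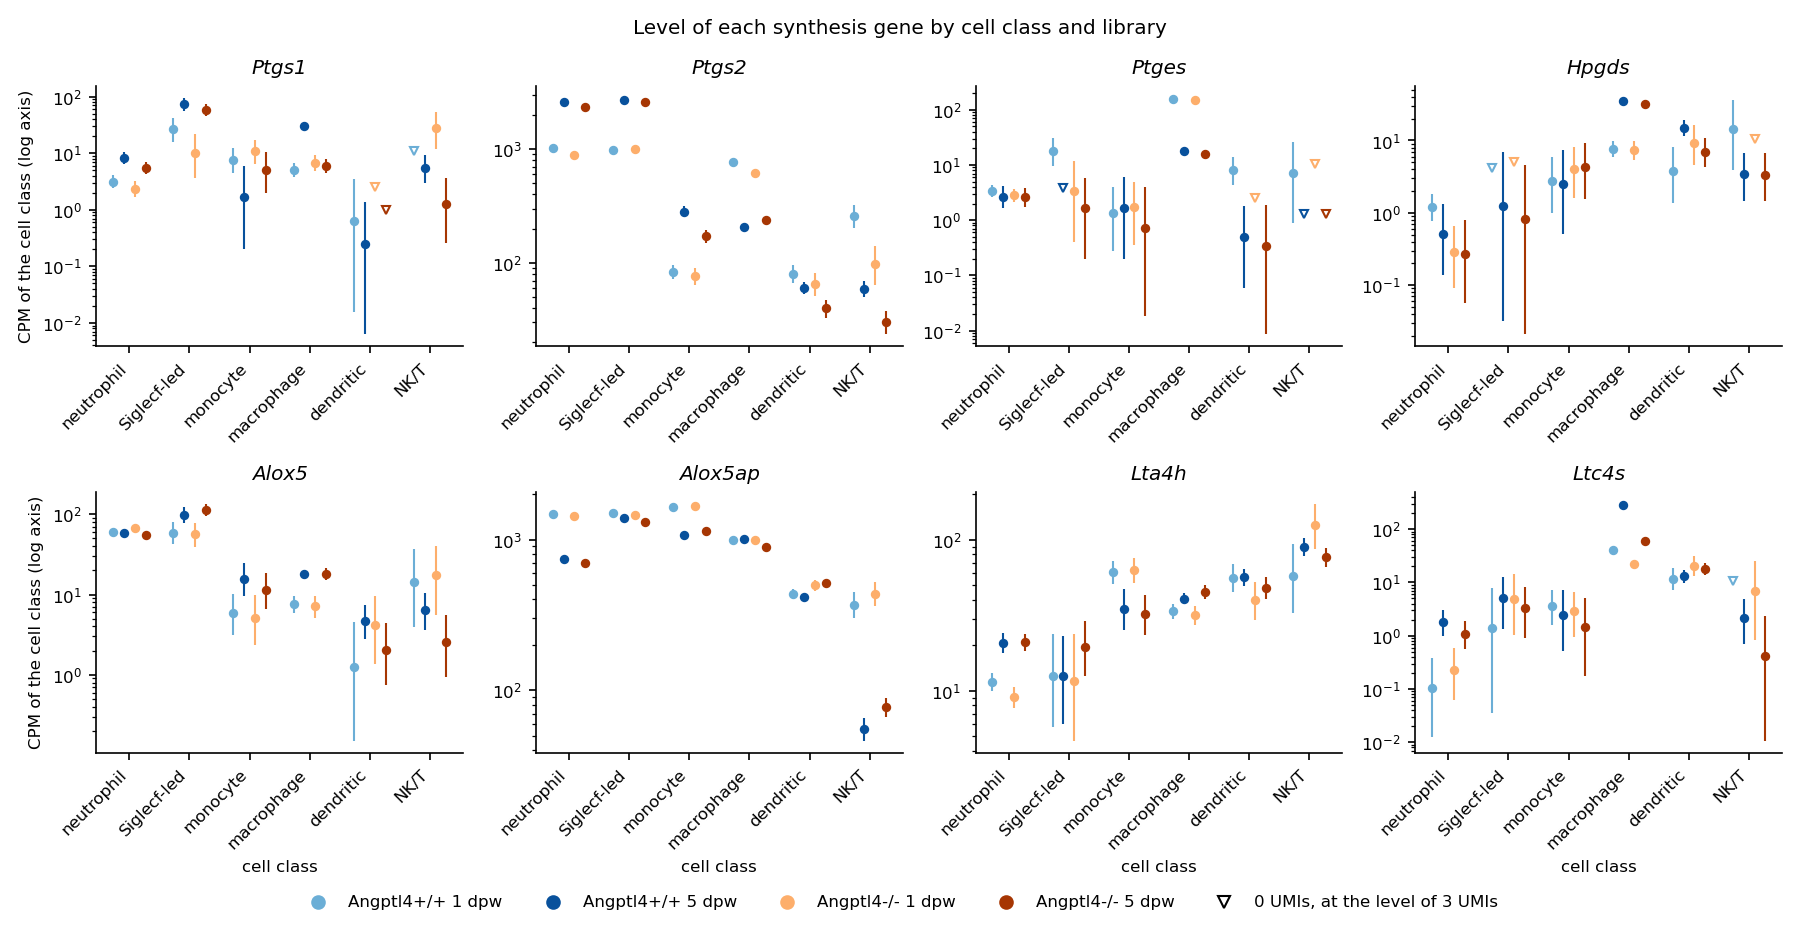
Level of 8 members (CPM, log axis) in 6 cell classes, with 1 point per library and exact Poisson 95% intervals, which cover counting error only. Ptgs2 is higher at 5 dpw in neutrophil-like cells and lower at 5 dpw in macrophage-like cells, and Ltc4s in macrophage-like cells reaches 286 CPM in the Angptl4+/+ library at 5 dpw.

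All 20 Alox15 UMIs came from 7 cells at 5 dpw. A cell that carried eosinophil markers (Siglecf and Ccr3), of the Angptl4+/+ library and with 1880 UMIs in all, held 6 of them. The other 14 lay in 6 of the 14 cells with at least 3 mast cell/basophil markers, of which 10 were from Angptl4+/+ and 4 from Angptl4-/- wounds. Of these cells, 12 had Mcpt8, a basophil protease, and no Cma1, a mast cell protease. Those 12 cells held 143 Alox5ap, 27 Alox5, 7 Ltc4s, 2 Lta4h and 12 Alox15 UMIs, and no Hpgds or Ptges UMI. The single cell with Cma1 held 3 Hpgds UMIs. The cells that matched eosinophil, mast cell or basophil markers were too few for any comparison. In macrophage-like cells Alox15 had 0 UMIs in every library, which allows up to 0.333, 0.229, 0.512 and 0.387 CPM, the level of 3 UMIs.

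Macrophage-like cells differed by day in most members. From 1 to 5 dpw Ptgs2 and Ptges were lower, and Ltc4s, Hpgds and Alox5 were higher, in both genotypes. Alox5ap and Lta4h differed by less than 2-fold. In Angptl4+/+ the log2 ratio of 5 to 1 dpw was -3.14 (-3.35 to -2.94) for Ptges and -1.90 (-1.97 to -1.84) for Ptgs2. The genes above 2-fold in the other direction were Ltc4s at 2.84 (2.68 to 3.00), Ptgs1 at 2.59 (2.14 to 3.06), Hpgds at 2.21 (1.85 to 2.60) and Alox5 at 1.24 (0.85 to 1.65). In Angptl4-/- the ratios were -3.29 (-3.58 to -3.02) for Ptges and -1.37 (-1.45 to -1.29) for Ptgs2. Hpgds had 2.12 (1.65 to 2.62), Alox5 1.32 (0.82 to 1.86) and Ltc4s 1.47 (1.19 to 1.76). Ptgs1 had under 100 UMIs over both Angptl4-/- libraries and was not counted.

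Of the 8 members with at least 100 UMIs over both Angptl4+/+ libraries, 4 were at least 2-fold higher and 2 at least 2-fold lower at 5 dpw, where 6.37% and 4.29% of all 8852 genes with that many UMIs were. In Angptl4-/- 3 of 7 were higher and 2 of 7 lower, against 4.33% and 3.68% of 7899 genes. The median log2 ratio over the members was 0.76 and 0.50, beside 0.15 and 0.07 over all genes tested. Under edgeR TMM factors the split of all genes past 2-fold changed from 564 higher and 380 lower to 396 and 497 in Angptl4+/+, and from 342 and 291 to 254 and 373 in Angptl4-/-, and the members past 2-fold kept their direction. The Ltc4s ratio in Angptl4-/- was 0.11 with cells thinned to 1000 UMIs and 0.51 with the mean of the CPM of each cell, both under 2-fold, while median depth was 5864 and 11513 UMIs per cell at 1 and 5 dpw. It reached 2.77 at a clustering resolution of 1.0. There, clusters of 1209 and 876 cells best matched by macrophage markers were unnamed and left out of the class. Ltc4s was among the leading genes of the former. Over the same alternatives the Angptl4+/+ ratio lay between 2.19 and 4.27 for Ltc4s and between 2.14 and 3.59 for Ptgs1. Both upper values were at that resolution. With the sub-cluster makeup of 1 dpw, the ratios in Angptl4-/- were -0.86 for Ptgs2 and 0.70 for Alox5, both under 2-fold, and Alox5 in Angptl4+/+ was 0.66.

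Between genotypes, macrophage-like cells differed in 2 members. At 5 dpw, Ltc4s and Ptgs1 were both lower in the Angptl4-/- library than in the Angptl4+/+ library, while the remaining members differed by less than 2-fold. The Ltc4s level was 286 CPM (95% interval 277 to 296) in the Angptl4+/+ library. In the Angptl4-/- library it was 61.1 CPM (55.7 to 66.8), which made the log2 ratio -2.23 (-2.37 to -2.09). The corresponding Ptgs1 levels were 30.7 CPM (27.8 to 33.8) and 6.07 CPM (4.46 to 8.07), with -2.34 (-2.81 to -1.90) as their ratio on that scale. These 2 of 8 members compare with 1.13% of 8845 genes past 2-fold either way, and the median log2 ratio was -0.16 over the members and -0.02 over all genes tested. At 1 dpw 0 of 7 members passed 2-fold, against 0.764% of 7855 genes, with medians of -0.07 and 0.02. The largest ratio was that of Ltc4s at -0.86 (-1.16 to -0.57), or -0.38 with thinned cells. Ptgs2 differed little between genotypes, with log2 ratios of -0.32 (-0.38 to -0.26) at 1 dpw and 0.22 (0.13 to 0.30) at 5 dpw, and so did Ptges at -0.03 (-0.15 to 0.09) and -0.18 (-0.51 to 0.14). Whether a genotype difference itself differed between days was not tested, since each day had 1 library per genotype. Across all alternatives run, the 5 dpw ratio lay between -2.47 and -2.00 for Ltc4s and between -2.57 and -2.23 for Ptgs1.

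**Figure D3:**
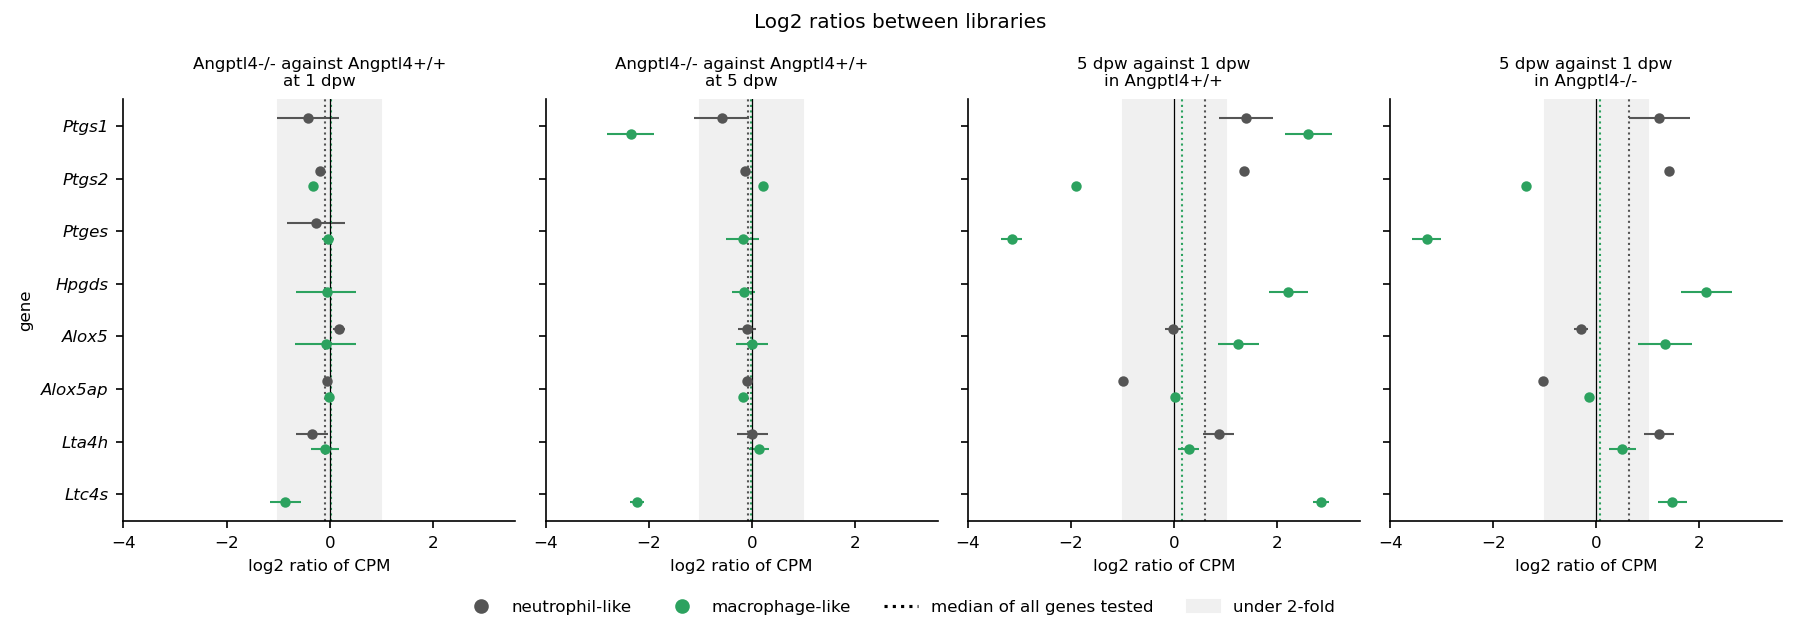
Log2 ratio of CPM (horizontal axis) between 2 libraries for each member with at least 100 UMIs, in neutrophil-like and macrophage-like cells, with exact conditional binomial 95% intervals that cover counting error only. The grey band marks ratios under 2-fold and the dotted lines the median of all genes tested, and in macrophage-like cells at 5 dpw Ltc4s (-2.23) and Ptgs1 (-2.34) lie left of the band.

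Macrophage-like and monocyte-like cells were clustered again together without the members among the clustering genes, giving 8 sub-clusters. Ptges had its highest level in M1, a sub-cluster led by Sema3c and Mt2, at 348, 63.0, 491 and 97.1 CPM. Ptgs2 in M1 was 1332, 441, 1228 and 689.8 CPM. M2, led by interferon-induced genes such as Ifit2 and Cxcl10, came next in Ptges at 134, 22.7, 141 and 4.15 CPM. At the other end, M6, led by Gas6, Ccl8, Cbr2 and Hpgds itself, had 0 Ptges UMIs among its 456 cells. Hpgds in M6 was 58.0, 126, 49.7 and 92.4 CPM, higher at 5 dpw in both genotypes. Ptges and Hpgds thus had their highest levels in different sub-clusters.

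Ltc4s led M4 together with Tppp3 and stood at 309, 645, 197 and 196 CPM there, the highest level of the sub-clusters except in Angptl4-/- at 5 dpw, where M7 was higher at 226 CPM from 8 UMIs. The Angptl4+/+ library at 5 dpw was the highest of the 4 in all 8 sub-clusters. In M8 it was near both 1 dpw libraries, which had 39 (Angptl4+/+) and 30 (Angptl4-/-) cells there. The widest gap between days was in M1, at 9.10, 479, 4.18 and 61.0 CPM. M6 had 68.1, 269, 38.1 and 98.1 CPM and M8, led by Retnla and Mgl2, 119, 135, 111 and 20.9 CPM. In M8 the Angptl4-/- library was lower at 5 dpw than at 1 dpw, and in M4 its 2 days were level, whereas in M1 it was higher. The log2 ratio of Angptl4-/- to Angptl4+/+ at 5 dpw was -2.97 (-3.34 to -2.63) in M1, -2.70 (-3.36 to -2.09) in M8, -1.72 (-1.96 to -1.48) in M4 and -1.46 (-1.72 to -1.20) in M6. M7, which was led by the neutrophil genes Retnlg, S100a8 and S100a9 and in which 12% of cells were marked as doublets, had -0.40 (-1.68 to 0.68) from 20 Angptl4-/- cells. Leaving M7 out of the macrophage-like class gave -2.25 for Ltc4s, so the difference was as large without those cells.

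Ptgs1 reached its highest values in M4, at 19.7, 58.5, 45.8 and 2.45 CPM, and in M8, at 14.8, 55.0, 62.6 and 12.5 CPM, where the low libraries were Angptl4+/+ at 1 dpw and Angptl4-/- at 5 dpw. In M4 the Angptl4-/- library at 5 dpw rested on 2 UMIs, a log2 ratio to Angptl4+/+ of -4.58 (-7.64 to -2.69). In M8 the ratio was -2.13 (-3.03 to -1.33). M8 also had the highest Lta4h level of the sub-clusters, at 77.2, 89.3, 62.6 and 93.6 CPM. Sub-cluster shares differed between libraries as well: M4 made up 9.73%, 17.2%, 8.95% and 9.83% of these cells. With the makeup of the Angptl4+/+ library given to the Angptl4-/- library at 5 dpw, the ratio was -2.00 for Ltc4s and -2.49 for Ptgs1.

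**Figure D4:**
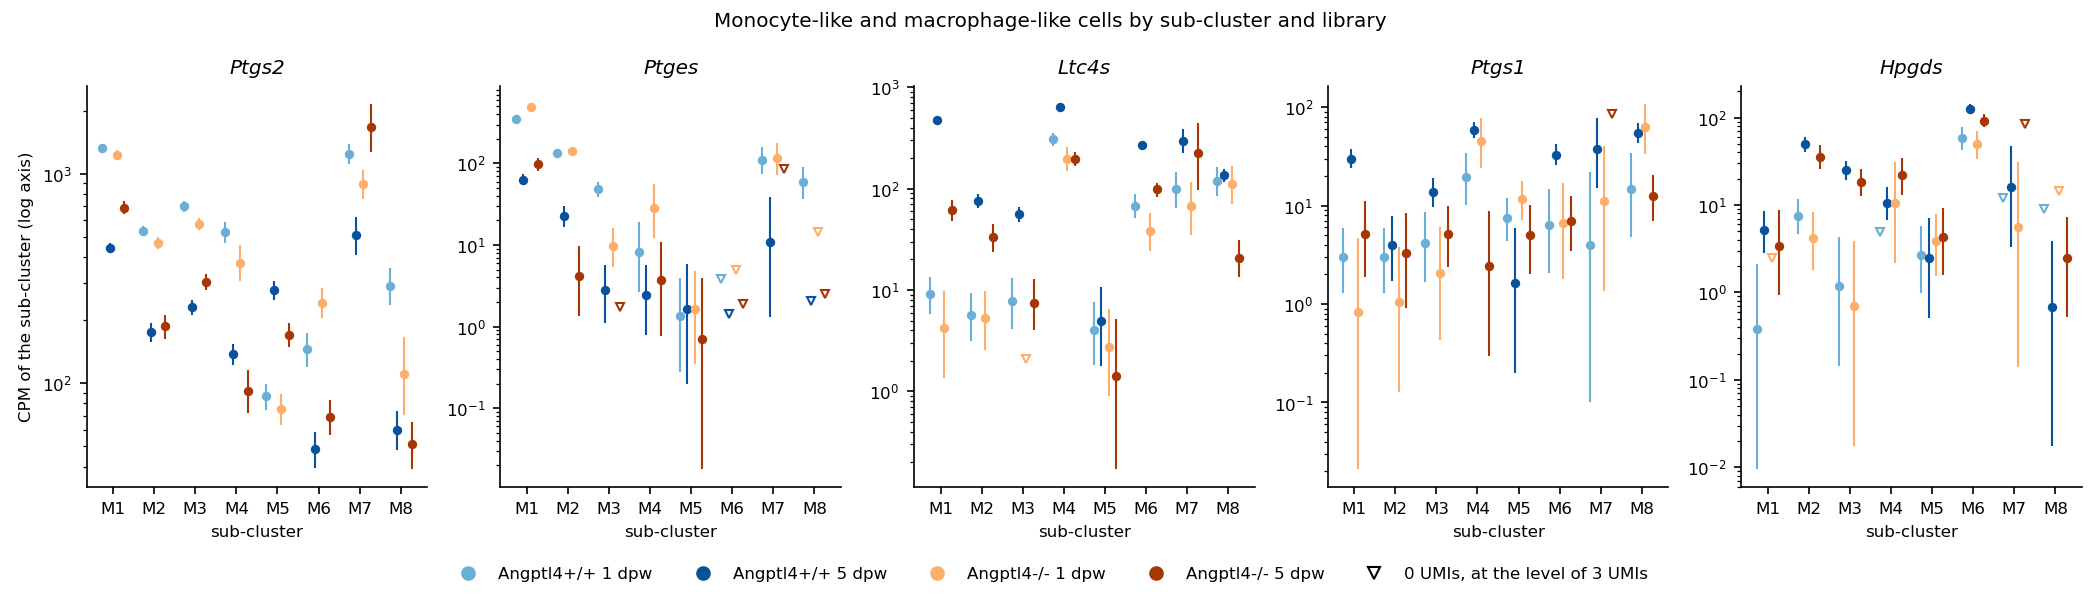
Level of 5 members (CPM, log axis) in the 8 sub-clusters of monocyte-like and macrophage-like cells, 1 point per library with exact Poisson 95% intervals for counting error. Ptges is highest in M1 and has no UMI in M6, Hpgds is highest in M6, and Ltc4s is highest in the Angptl4+/+ library at 5 dpw (645 CPM in M4).

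Within single macrophage-like cells, Ptges was seen more often with Ptgs2 than without it at 1 dpw. With each cell thinned to 1000 UMIs, Ptges was seen in 19.1% (95% interval 15.4 to 23.4) of Angptl4+/+ cells with a Ptgs2 UMI and in 6.76% (5.01 to 8.89) of those without. In Angptl4-/- the shares were 18.2% (13.8 to 23.3) and 8.22% (5.99 to 10.9). Ltc4s was seen in few cells with Ptges, but the intervals for cells with and without Ptges overlapped in every library. At 1 dpw it was seen in 1 of 123 Angptl4+/+ cells with Ptges, or 0.813% (0.0206 to 4.45), and in 4.85% (3.59 to 6.40) of cells without. In Angptl4-/- it was seen in 0 of 92 cells with Ptges, with an upper limit of 3.93%, and in 4.32% (2.94 to 6.11) of cells without. At 5 dpw Ltc4s was seen in 2 of 26 Angptl4+/+ cells with Ptges, or 7.69% (0.946 to 25.1), and in 21.4% (19.3 to 23.6) of cells without. The Angptl4-/- values at 5 dpw were 0 of 8 cells, with an upper limit of 36.9%, and 4.73% (3.22 to 6.69). Cells of 1 library are not replicates, so these shares describe the libraries. In Angptl4+/+ macrophage-like cells at 5 dpw, Alox5ap was seen in 76.5% (71.4 to 81.0) of cells with Ltc4s and in 56.3% (53.4 to 59.1) of the others. At 1 dpw the Angptl4+/+ shares were 68.8% (53.7 to 81.3) and 61.3% (58.3 to 64.3), with overlapping intervals. In Angptl4-/- they were 86.7% (69.3 to 96.2) and 58.1% (54.5 to 61.6) at 1 dpw. At 5 dpw they were 73.3% (54.1 to 87.7) and 56.2% (52.2 to 60.2), again overlapping.

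Neutrophil-like cells differed between days in another set of members. At 5 dpw Ptgs2 was higher and Alox5ap lower than at 1 dpw in both genotypes, Lta4h and Ptgs1 were higher, and Alox5 differed little. The Angptl4+/+ log2 ratio of Ptgs2 was 1.36 (1.33 to 1.38), and the Angptl4-/- one 1.41 (1.38 to 1.44). For Alox5ap it was -0.99 (-1.03 to -0.95) and -1.04 (-1.08 to -1.01). Lta4h had 0.86 (0.56 to 1.16) and 1.21 (0.92 to 1.51), and Ptgs1, at 42 to 65 UMIs per library, 1.39 (0.86 to 1.92) and 1.22 (0.63 to 1.83). Alox5 had -0.29 (-0.44 to -0.15) in Angptl4-/- and -0.02 (-0.18 to 0.13) in Angptl4+/+, the latter with a sign that differed between alternatives (-0.64 to 0.09). The Ptgs1 ratio lay between 0.78 and 1.89 in Angptl4+/+ and between 0.41 (thinned cells) and 2.05 in Angptl4-/- over the alternatives. The value of 2.05 was at a clustering resolution of 1.0. There, a cluster of 981 cells with Ptgs1 among its leading genes counted as neutrophil-like, so the class held other cells.

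In these cells the whole distribution shifted with the day, so each ratio should be read against it. The median log2 ratio over all genes tested was 0.61 in Angptl4+/+ and 0.62 in Angptl4-/-. Relative to that median, Ptgs2 was higher by 0.75 and 0.79 and Alox5ap lower at -1.60 and -1.67. Ptgs1 was then 0.79 and 0.60 and Lta4h 0.26 and 0.59, while Alox5 was -0.63 and -0.92. Of 5 members tested, 2 were at least 2-fold higher and 0 lower in Angptl4+/+, against 27.1% and 2.04% of 6361 genes, and 3 were higher and 1 lower in Angptl4-/-, against 28.8% and 1.87% of 6418 genes. The median over the members was 0.86 and 1.21. Under TMM factors the split of all genes past 2-fold changed from 1724 higher and 130 lower to 429 and 477 in Angptl4+/+, and from 1847 and 120 to 530 and 450 in Angptl4-/-. Then Alox5ap, at -1.61 and -1.69, was the 1 member past 2-fold in each genotype, and Ptgs2 had 0.74 and 0.77.

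Between genotypes the neutrophil-like libraries were close. None of 6 members passed 2-fold at 1 dpw, where 0.9% of 6331 genes did, and 0 of 5 at 5 dpw, where 0.941% of 6374 genes did. The medians were -0.23 over the members and -0.09 over all genes at 1 dpw, and -0.10 and -0.07 at 5 dpw. Ptgs2 was slightly lower in Angptl4-/-, with log2 ratios of -0.20 (-0.23 to -0.17) and -0.14 (-0.17 to -0.12), and Alox5ap had -0.04 (-0.07 to -0.02) and -0.10 (-0.14 to -0.05). The largest was that of Ptgs1 at 5 dpw, -0.59 (-1.11 to -0.06), from 61 and 65 UMIs, and it was -1.29 with cells thinned to 1000 UMIs.

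In neutrophil-like cells Ptgs2 had its highest level in another sub-cluster than Alox5ap and Alox5. Alox5ap was highest in N6, led by Rab3d and Gpr27, at 2579.8, 1528, 2687 and 1441 CPM, as was Alox5 at 99.8, 136, 113 and 121 CPM. Ptgs2 was highest in N7, led by the cytokine genes Csf3 and Cxcl1, at 2072, 3790.3, 1928 and 3277 CPM. In N7 Alox5ap was 778, 317, 764 and 327 CPM and Alox5 21.7, 22.3, 21.0 and 23.2 CPM. N6 had the lowest Ptgs2 of the sub-clusters at 1 dpw, 514, 2439, 432 and 2147 CPM, yet was higher at 5 dpw in both genotypes. The day difference in Ptgs2 had the same direction in all 9 sub-clusters and both genotypes. Within cells, Alox5ap was seen more often with Alox5 than without it, in 74.1% (67.7 to 79.8) against 62.9% (61.2 to 64.5) of thinned Angptl4-/- cells at 1 dpw. In Angptl4+/+ at 1 dpw the shares were 69.7% (63.0 to 75.9) and 65.1% (63.5 to 66.7), with overlapping intervals.

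**Figure D5:**
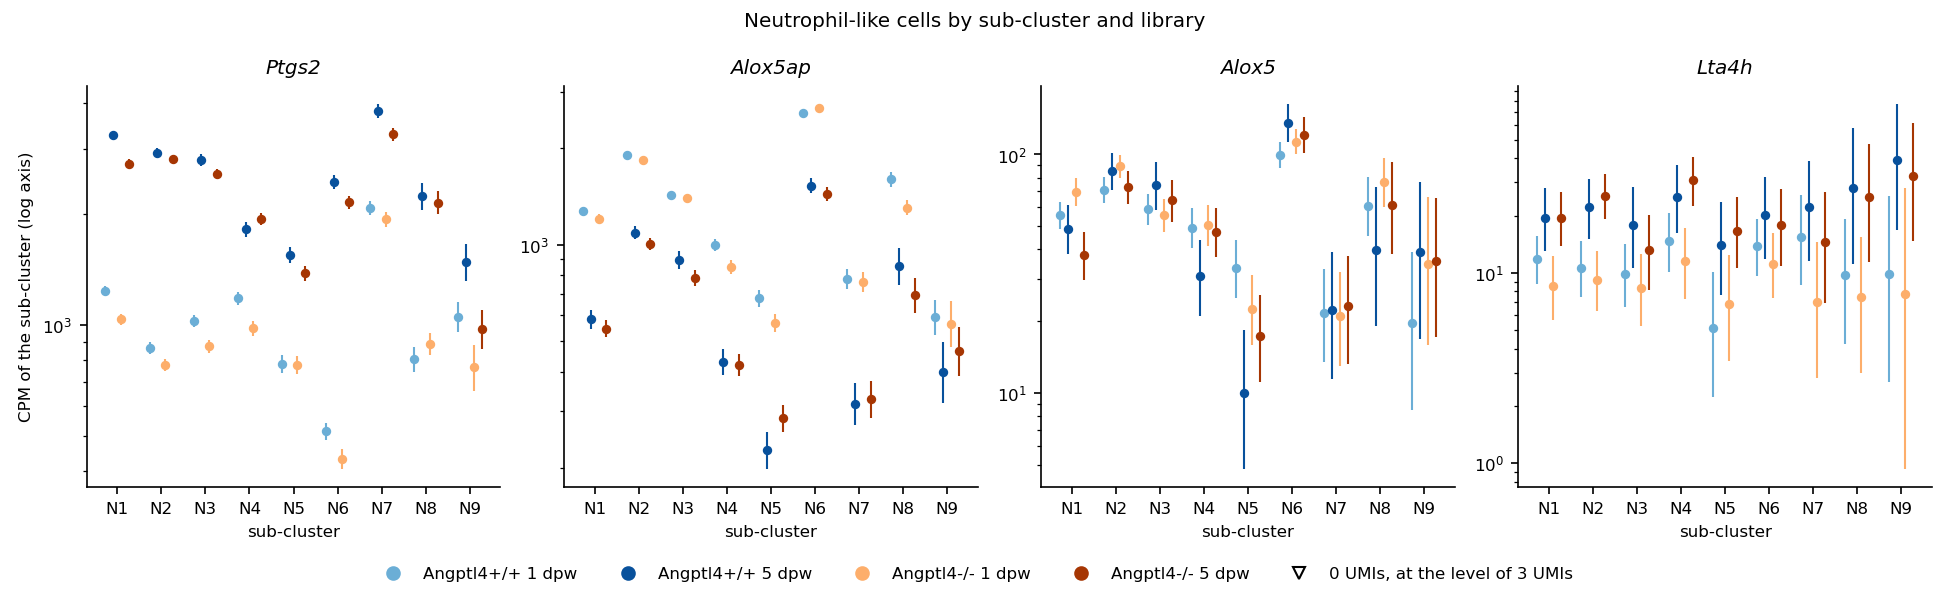
Level of 4 members (CPM, log axis) in the 9 sub-clusters of neutrophil-like cells, 1 point per library with exact Poisson 95% intervals for counting error. Alox5ap and Alox5 are highest in N6 and Ptgs2 is highest in N7, and Ptgs2 is higher and Alox5ap lower at 5 dpw than at 1 dpw in every sub-cluster.

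The 2 smaller myeloid classes had few members with enough UMIs. In the Siglecf-led cluster Ptgs2 was higher at 5 dpw, with log2 ratios of 1.46 (1.33 to 1.58) and 1.37 (1.25 to 1.5), and Alox5 had 0.75 (0.20 to 1.33) and 1.01 (0.46 to 1.60). That gave 1 of 3 members past 2-fold in Angptl4+/+ and 2 of 3 in Angptl4-/-, against 19.5% and 19.0% of all genes tested there. Alox5ap, unlike in neutrophil-like cells, was nearly level between days, at -0.11 (-0.24 to 0.01) and -0.15 (-0.27 to -0.03). The median log2 ratio over all genes tested in this cluster was 0.26 in each genotype, against 0.61 and 0.62 in neutrophil-like cells. Between genotypes 0 of 2 and 0 of 4 members passed 2-fold at 1 and 5 dpw, against 0.893% and 0.882% of genes. Monocyte-like cells had higher Ptgs2 at 5 dpw, 1.76 (1.49 to 2.02) and 1.16 (0.85 to 1.47), which was the 1 of 3 members past 2-fold in each genotype, against 4.09% and 3.5% of genes. Their levels at 1 dpw, however, were below those of NK cell/T cell-like cells. Their genotype ratios passed 2-fold in 0 of 3 members at 1 dpw and 0 of 2 at 5 dpw, against 0.696% and 0.732% of genes. In dendritic cell-like cells Alox5ap was highest in D4, led by Xcr1, a marker of cross-presenting dendritic cells, at 920.0, 907, 1045 and 783 CPM, and lowest in D3 at 115, 18.1, 0 and 13.2 CPM.

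The rest of the pathway was described by 5 lists of 51 genes: fatty acid release, other prostanoid synthesis, other lipoxygenase and leukotriene synthesis, inactivation and transport, and receptors. Only genes with at least 100 UMIs over both libraries were tested. In neutrophil-like cells these were, in list order, 2, 3, 3, 2 and 5 genes at 1 dpw and 3, 1, 2, 4 and 3 at 5 dpw. None of them passed 2-fold between genotypes, where 0.9% and 0.941% of all genes tested did. In macrophage-like cells 4, 4, 2, 5 and 6 genes were tested at 1 dpw, and 0 genes of any list passed, against 0.764% of all genes. At 5 dpw 1 of 6 tested in the inactivation and transport list did, against 1.13%. That gene was Ptgr1, whose product acts on leukotriene B4 and on prostaglandin metabolites. It had 58.1 CPM in Angptl4+/+ and 24.8 CPM in Angptl4-/-, a log2 ratio of -1.23 (-1.46 to -1.0). The genotype medians of the lists lay between -0.45 and 0.27 over both classes and days.

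Between days more listed genes passed 2-fold, and the background was larger too. In macrophage-like cells 6.37% of all genes were higher and 4.29% lower in Angptl4+/+, and 4.33% and 3.68% in Angptl4-/-. In neutrophil-like cells 27.1% were higher and 2.04% lower in Angptl4+/+, and 28.8% and 1.87% in Angptl4-/-. In macrophage-like cells of Angptl4+/+ 1 of 4 fatty acid release genes was higher (Pla2g15, a lysosomal phospholipase, log2 ratio 1.83), 2 of 6 prostanoid synthesis genes (the thromboxane synthase Tbxas1, 1.36, and Akr1b3, 1.28) and 1 of 6 inactivation genes (the prostaglandin dehydrogenase Hpgd, 1.86). The prostaglandin E2 receptor Ptger4 (1.78) and the prostacyclin receptor Ptgir (1.52) were higher, and the formyl peptide and lipoxin receptor Fpr2 was lower at -1.87. None of 3 lipoxygenase and leukotriene genes passed 2-fold. In Angptl4-/- Tbxas1 (1.13), Akr1b3 (1.01), Hpgd (3.23) and Fpr2 (-1.88) passed 2-fold in the same directions, and 0 of 4 fatty acid release and 0 of 2 leukotriene genes did. With TMM factors Akr1b3 in Angptl4-/- had 0.91, under 2-fold. In neutrophil-like cells 2 of 4 and 2 of 3 leukotriene genes were lower at 5 dpw in Angptl4+/+ and Angptl4-/-. They were the leukotriene C4-forming glutathione transferase Mgst2 (-2.21 and -2.28) and the gamma-glutamyl transferase Ggt1 (-3.04 and -5.46). Dpep2 (1.68), Ptges3 (1.10) and the receptor Ptger2 (1.10) passed 2-fold as higher in Angptl4+/+ and Abcc4 (1.67) in Angptl4-/-. Dpep2 in Angptl4-/- and Abcc4 in Angptl4+/+ had too few UMIs to be tested. Ptges3 in Angptl4-/- was also higher at 5 dpw, at 27.3 and 52.4 CPM at 1 and 5 dpw, but under 2-fold. With TMM factors Ptges3 and Ptger2 in Angptl4+/+ each had 0.48, under 2-fold, while Dpep2 had 1.07 and Abcc4 1.02. Neutrophil-like cells had no fatty acid release gene past 2-fold. Pla2g7 had the highest CPM of that list there, at 421 CPM in Angptl4+/+ at 1 dpw, and Pla2g4a came next at 8.85 CPM. Cyp4f18 (626 CPM), which inactivates leukotriene B4, and Fpr2 (412 CPM) led their lists in that library. Among receptors Fpr2 was followed by the leukotriene B4 receptor Ltb4r1 (192 CPM).

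The genes most like a member in level were ranked by Pearson correlation of log2(CPM + 1) over 83 combinations of sub-cluster and library, among 8723 genes. The combinations share libraries and cell classes, so the coefficients are descriptions. Ccr1 (0.93), Snx18 (0.93) and Plek (0.92) were most like Ptgs2, and Kdm7a (0.91), Lyn (0.88) and Ifitm6 (0.87) most like Alox5ap. For Ltc4s the genes were Trim47 (0.86), Kcnk13 (0.83) and Pdlim4 (0.83), for Ptges 1700012B09Rik (0.85), Errfi1 (0.82) and Pdpn (0.79), and for Lta4h Snu13 (0.84), Tacc1 (0.84) and Pycard (0.83). Hpgds was nearest to Itga6 (0.76), Frmd4b (0.76) and Cd72 (0.74), and Ptgs1 to Zfhx3 (0.70), March8 (0.69) and Abcd2 (0.69). Among the members, the highest coefficient was that of Ptgs2 with Alox5 (0.64) and the lowest that of Ptgs2 with Hpgds (-0.51).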

How the data were processed

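Live CD45+ cells of mouse wounds were profiled with the 10x Genomics 3' V3 kit, 1 library for each genotype and day. The authors deposited UMI counts per gene and cell, which are whole numbers and not normalized, and the submitters' processing notes name Cell Ranger 3.1.0, Seurat 3.0 and mm10. Deposited counts totalled 26981596 to 32962595 UMIs per library over 20069 barcodes. Cells were kept from 200 detected genes up and with mitochondrial UMIs not above 10% (19827 cells; 242 failed). Likely doublets were marked at 0.8% per 1000 cells and kept. Libraries were joined with Seurat 5.3.0 anchors (2000 variable genes, 30 dimensions) and clustered at resolution 0.5 in R 4.3.3, after 13 member and pathway genes had been left out of the variable genes. Clusters were named from marker lists, and rare cells by at least 3 markers of a list.

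Counts were summed per class and library and divided by the class total (CPM), with numpy 2.4.6, scipy 1.17.1 and pandas 2.3.3. Levels have exact Poisson, shares exact Clopper-Pearson and ratios exact conditional binomial 95% intervals. These cover counting error only. A member was compared with at least 100 UMIs over both libraries and counted past 2-fold. The ratio and its interval were run on simulated counts with known folds and Poisson error only. That run holds no variation between cells or libraries, so it cannot show how they behave under it. TMM factors came from edgeR 4.0.16. No p-value was computed, because each group had 1 library. The text names all 9 members, the pathway genes past 2-fold or leading their list in CPM, and the 3 genes most like each member with enough UMIs, except that those of Alox5 are not reported here. Members and lists were chosen with earlier results of these data known. Promoter sequences are RefSeq's, on GRCm38.p6.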

Additional observations from a re-analysis of the deposited data

Results flagged for a closer look

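Ptgs2 differed between days in opposite directions in the 2 largest classes. The log2 ratio of 5 to 1 dpw was 1.36 in Angptl4+/+ and 1.41 in Angptl4-/- neutrophil-like cells, and -1.90 and -1.37 in macrophage-like cells. The difference between the classes was not tested, since each group had 1 library. With TMM factors the neutrophil-like ratios were 0.74 and 0.77. With the sub-cluster makeup of 1 dpw the macrophage-like ratios were -1.61 and -0.86. Neutrophil markers summed to 12649 and 11314 CPM in macrophage-like cells at 1 dpw and to 2266 and 2422 CPM at 5 dpw, in Angptl4+/+ and Angptl4-/-. Without sub-cluster M7, which neutrophil genes led, the macrophage-like ratios were -1.91 and -1.39, as large as with it. The part of neutrophil transcripts in the remaining cells was not tested.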

How the results depend on the processing

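No paired analysis was possible because each genotype and day had 1 library. Of 51 member ratios, 37 had 1 sign under all 11 alternatives, and so did all 19 ratios past 2-fold, of which 9 were past 2-fold under every alternative. Of the counts of members past 2-fold, 94 values were within 1.5 times the reported count and 10 were not. Between genotypes in neutrophil-like cells, the count of 0 became 1 with a minimum of 20 UMIs at 1 dpw, and 1 with a 1.5-fold limit or with thinned cells at 5 dpw. In macrophage-like cells at 1 dpw it became 1 with the 1.5-fold limit. Between days in Angptl4+/+ neutrophil-like cells, the count of 2 became 1 with TMM factors and 4 with the 1.5-fold limit. In Angptl4-/- neutrophil-like cells the count of 4 became 1 with TMM factors, and 2 with thinned cells or with the mean of the CPM of each cell. In Angptl4-/- macrophage-like cells the count of 5 became 3 with the sub-cluster makeup of 1 dpw. The cause was not tested. Alternatives on unnamed clusters, makeup and sub-cluster M7 were chosen after seeing the data. Members under 100 UMIs over both libraries were too shallow to compare.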
